A study of Mus musculus with 18 samples.

Results

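The 10 genes described here are the classical genes of brown adipocyte identity and heat production, Ucp1, Cidea, Prdm16, Ppargc1a, Ppargc1b, Dio2, Elovl3, Zic1, Lhx8 and Ebf2, and they were picked by symbol from the 45151 symbols that all 18 RNA-seq samples list. The samples came from male wild type C57BL/6 mice aged 16 weeks and kept on regular chow, with 6 samples of inguinal white fat (iWAT), 6 of epididymal white fat (eWAT) and 6 of brown fat (BAT). For iWAT and eWAT, mature adipocytes were floated off after collagenase digestion, while BAT was frozen and used as whole tissue, so depot and preparation cannot be told apart in any comparison with BAT. The number in each sample title was taken as the number of the mouse, which the labels do not explain. No mouse had been treated. The paper kept its mice at a temperature below the one it calls thermoneutral, so the levels below need not be those of resting fat.

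Brown adipocytes burn fatty acids and turn the energy into heat. They do so with uncoupling protein 1 (Ucp1), which lets protons back across the inner mitochondrial membrane without making ATP. Sympathetic nerves switch the program on through beta-adrenergic receptors and cAMP, and the transcription factor Ebf2 together with the coregulator Prdm16 and the coactivators Ppargc1a and Ppargc1b keep its genes active. Inguinal white fat is known for gaining brown-like (beige) cells in the cold, whereas epididymal fat in mice does so far less readily.

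Each value is an RPKM (reads per kilobase of the row, divided by how many reads the sample has in all). For iWAT and BAT the row is the gene with its exons merged, and for eWAT it is a single transcript, for which the transcript with most reads was taken. The total of reads behind the RPKM was between 22929576 and 34512470 per sample. Marker genes of other cells varied among the samples. The summed RPKM of 10 skeletal muscle genes reached 1641 in the BAT sample of mouse 12 and at most 145.5 in the other BAT samples. The summed RPKM of 9 macrophage genes was 2573 in the eWAT sample of mouse 15 and at most 600.3 in the other eWAT samples, and 5 epididymis genes reached 76.1 and 70.9 in 2 eWAT samples, those of mice 14 and 15, while no read was found for any of them in iWAT. The BAT sample of mouse 11 held the highest value of the depot in 44.8% of the 11231 rows with a mean RPKM of at least 1, against 7.81% to 16.6% for the other 5. All 8 adipocyte markers had reads in every sample, and their summed RPKM was between 6173 and 7561 in BAT and between 11762 and 22672 in the white fat samples. In bulk RNA, fewer cells of a type and less RNA per cell cannot be told apart.

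In BAT the 10 genes spanned more than 3 orders of magnitude. Ucp1 led with 1219 ± 189.5 RPKM (mean ± SD, n = 6 here and below), and its reads alone made up 0.159% to 0.248% of the reads behind the RPKM. Cidea followed with 711 ± 67.8. Then came Elovl3 (22.9 ± 17.9), Ppargc1b (13.4 ± 0.785), Dio2 (12.5 ± 9.42), Ppargc1a (7.96 ± 5.67) and Ebf2 (7.68 ± 1.13), 5 genes whose neighbours in this order had overlapping ranges. Prdm16 (3.10 ± 0.398) stood clear of Ebf2 above it and of Zic1 (0.862 ± 0.240) below it, and the ranges of Zic1 and Lhx8 (0.420 ± 0.213) overlapped. The order in iWAT was different. Cidea led there with 20.2 ± 4.07, with every sample above those of Ebf2 (3.94 ± 0.974). Ebf2, Ucp1 (2.82 ± 1.92), Prdm16 (2.19 ± 0.601), Lhx8 (2.05 ± 0.862), Ppargc1b (1.55 ± 0.203) and Ppargc1a (1.45 ± 0.456) overlapped from neighbour to neighbour. Dio2 (0.343 to 0.690) was below these but for Ucp1, whose lowest sample (0.494) lay within the range of Dio2, and Elovl3 and Zic1 followed without overlap. In eWAT the leading gene was Ebf2 with 4.87 ± 1.57, ahead of Cidea (2.12 ± 0.827) and Ppargc1b (1.17 ± 0.274), and every gene there overlapped in range with the next.

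**Figure D1:**
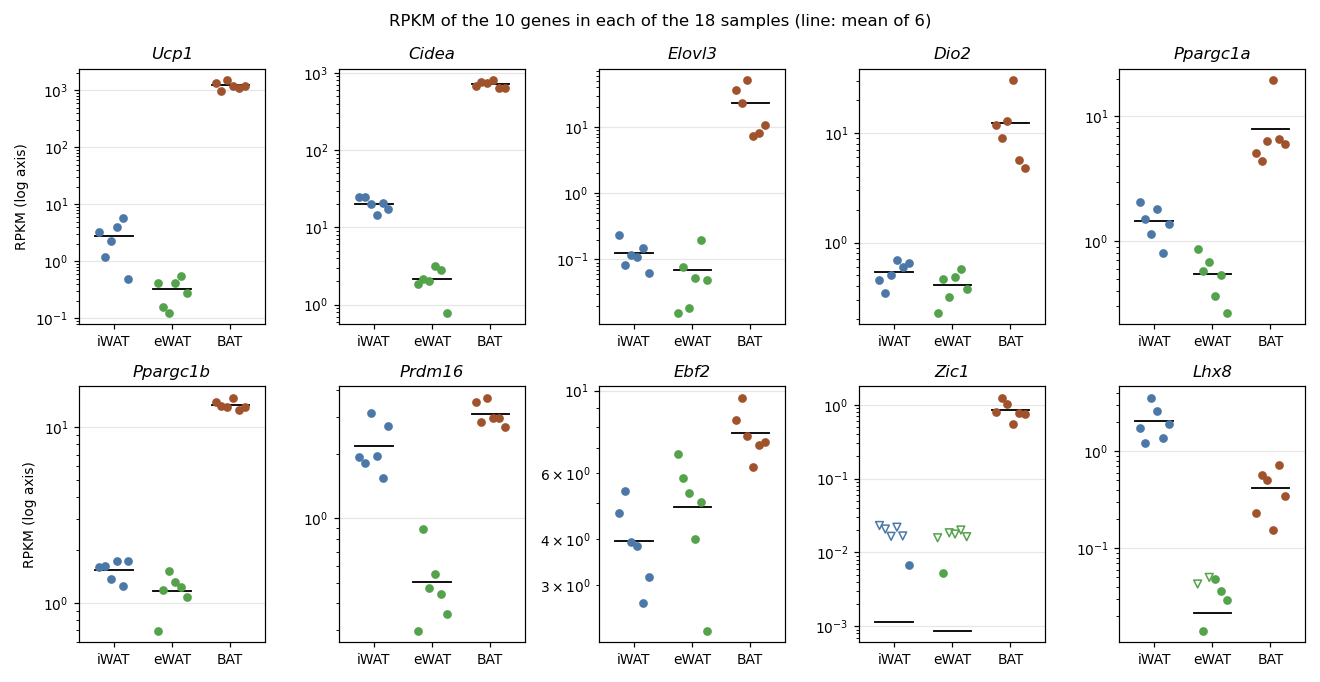
RPKM of each of the 10 genes (log axis, its own scale for each gene) in the 6 iWAT, 6 eWAT and 6 BAT samples, with 1 point per sample and a line at the mean. Open triangles mark samples with 0 reads, drawn at the RPKM that 3 reads would give. BAT stands apart for Ucp1, Cidea, Elovl3, Dio2, Ppargc1a, Ppargc1b and Zic1, iWAT and BAT overlap for Prdm16, and Lhx8 is highest in iWAT.

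The promoters of the cAMP-responsive members Ucp1, Dio2 and Ppargc1a are shown because these 3 genes answer to the same nerve signal and yet behaved differently between depots and between BAT samples. Each line gives the 250 bases before the RefSeq start of the gene in the build GRCm38.p6, 5′ to 3′ on the gene's strand. Capitals mark the cAMP response element (CRE), which is the full site TGACGTCA in Dio2 and the shorter core TGACG on either strand in the other genes. Ucp1 lies at chr8:83290098-83290347 on the plus strand, Dio2 at chr12:90739039-90739288 on the minus strand and Ppargc1a at chr5:51567726-51567975 on the minus strand.
Ucp1: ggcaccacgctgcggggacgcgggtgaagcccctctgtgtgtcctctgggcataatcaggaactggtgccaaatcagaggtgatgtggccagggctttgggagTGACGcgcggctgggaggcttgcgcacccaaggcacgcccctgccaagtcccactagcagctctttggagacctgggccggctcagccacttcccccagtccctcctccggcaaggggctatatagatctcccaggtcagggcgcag
Dio2: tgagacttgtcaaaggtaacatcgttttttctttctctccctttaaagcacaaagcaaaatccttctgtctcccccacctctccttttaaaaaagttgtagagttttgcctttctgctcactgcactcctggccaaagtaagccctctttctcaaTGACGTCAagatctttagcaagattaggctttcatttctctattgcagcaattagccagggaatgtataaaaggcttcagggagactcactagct
Ppargc1a: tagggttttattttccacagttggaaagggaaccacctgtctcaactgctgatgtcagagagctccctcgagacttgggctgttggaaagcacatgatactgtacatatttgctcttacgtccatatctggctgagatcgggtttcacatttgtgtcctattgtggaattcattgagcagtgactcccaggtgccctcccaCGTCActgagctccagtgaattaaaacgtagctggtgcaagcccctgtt
The full site begins 95 bases before the start of Dio2 and is held by 1.55% of the 32851 promoters of this length, searched on both strands. The core, which the full site contains on each strand, begins 147 bases before the start of Ucp1 and 49 bases before that of Ppargc1a, and 17.8% of the promoters hold it. Dio2 also has the TATA box letters TATAAA 30 bases before its start (12.4% of promoters). The nuclear receptor core AGGTCA lies 14 bases before the start of Ucp1 (14% of promoters). RefSeq promoters were found for 6 of the 10 genes, and those of Prdm16, Zic1 and Lhx8 held none of these letters. None of the 6 held the longer site TCAAGGTCA of estrogen-related receptors (0.387% of promoters) or the EBF letters CCCNNGGG (11.8%). A match in these windows is a description of letters and not of binding, and the known enhancer of Ucp1 lies further upstream.

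The question for the first comparison was how far the brown program in iWAT adipocytes falls short of that in BAT. Of the 10 genes, 9 were higher in BAT and 1, Lhx8, was higher in iWAT (edgeR's quasi-likelihood test, Benjamini-Hochberg adjusted p under 0.05 over 19733 rows). Among all rows tested, 33.6% were called higher in BAT and 34.0% higher in iWAT. With library size alone and no TMM scaling the split over all rows moved to 4732 higher in BAT and 9107 higher in iWAT (6626 and 6711 with TMM). The median log2 fold change of all rows moved from 0.01 to 0.27, and each of the 10 genes kept its direction. For 8 of the 10, every BAT sample was above every iWAT sample, which held for 16.0% of all rows. The median log2 fold change of the 10 genes was -4.07 and that of all rows 0.01. Zic1 passed the filter of 10 reads in 6 samples through BAT only, and Elovl3 reached 10 reads in no more than 1 sample of each white depot.

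The heat-producing and lipid-handling genes were all lower in iWAT. Ucp1 was between 969 and 1509 RPKM in BAT (median 1196) and between 0.494 and 5.76 in iWAT (median 2.76). The depots did not overlap, and the lowest BAT sample was above the highest iWAT sample by 2 orders of magnitude. The log2 fold change of iWAT over BAT was -9.02 ± 0.54 (SE, adjusted p = 4.38e-09 by edgeR), and the ratio of mean RPKM was 432. Cidea, a lipid droplet protein named for its likeness to apoptosis factors and long used as a brown fat marker, was between 634 and 805 in BAT and between 14.5 and 25.0 in iWAT. It was lower in iWAT by a ratio of 35.2 in mean RPKM, at a log2 fold change of -5.40 ± 0.16 (adjusted p = 1.02e-11 by edgeR). Elovl3 makes very long chain fatty acids and is strongly induced by cold. Its level in BAT was between 7.27 and 51.4 RPKM, and iWAT held 3 to 10 reads per sample, at 0.0615 to 0.231 RPKM. Over the summed reads of each depot, BAT was above iWAT by a ratio of 182 (95% counting interval 133 to 258). Dio2, the enzyme that makes active thyroid hormone inside the cell, was between 4.84 and 30.5 in BAT and between 0.343 and 0.690 in iWAT. The log2 fold change of Dio2 was -4.76 ± 0.42 (adjusted p = 2.25e-07 by edgeR).

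The coactivators differed less than these. Ppargc1b, which drives mitochondrial genes, was the steadiest of the 10 genes in BAT, between 12.5 and 14.7 RPKM. In iWAT it was between 1.24 and 1.74, and the log2 fold change was -3.38 ± 0.10 (adjusted p = 1.02e-11 by edgeR). Ppargc1a, the cold-inducible coactivator of the same family, was between 4.34 and 19.4 in BAT and between 0.801 and 2.07 in iWAT, with a log2 fold change of -2.68 ± 0.35 (adjusted p = 1.04e-05 by edgeR). Both depots were separate for both genes. The highest BAT values of Ppargc1a and Dio2 came from mouse 11, and without that sample the log2 fold changes were -2.29 and -4.37.

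Of the 10 genes, Prdm16 and Ebf2 showed the smallest differences. Prdm16 was between 2.69 and 3.67 RPKM in BAT (median 2.95) and between 1.55 and 3.12 in iWAT (median 1.95). The 2 highest iWAT samples, from mice 12 and 15, lay within the BAT range. The log2 fold change was -0.78 ± 0.16 (adjusted p = 0.00056 by edgeR), and the ratio of mean RPKM was only 1.42. Without TMM scaling the log2 fold change was -0.50 with an adjusted p of 0.0111 in edgeR. Ebf2, the factor that marks committed brown precursors, was between 6.25 and 9.55 in BAT and between 2.69 and 5.37 in iWAT. These ranges did not overlap, and the log2 fold change was -1.23 ± 0.17 (adjusted p = 1.5e-05 by edgeR). By the size of its log2 fold change, Zic1 had rank 24, Ucp1 rank 25 and Prdm16 rank 8043 among the 19733 rows. The rank of Zic1 rests on 1 read in iWAT, so its size is poorly measured.

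The 2 developmental markers of classical brown fat went opposite ways. Zic1, a zinc finger factor of the dorsal body segments from which interscapular brown fat arises, had 95 to 239 reads in each BAT sample (0.551 to 1.24 RPKM). In iWAT a single read was found over all 6 samples, in that of mouse 15. Over the summed reads this is a ratio of 794 per read of depth, with a 95% counting interval of 142 to 31382, and 3 reads would have given at most 0.0232 RPKM in an iWAT sample. Lhx8, a LIM homeobox factor that has also been used as a brown marker, was between 1.21 and 3.52 RPKM in iWAT (median 1.82) and between 0.156 and 0.715 in BAT (median 0.426). Every iWAT sample was above every BAT sample. The log2 fold change was 2.00 ± 0.35 (adjusted p = 0.000171 by edgeR), the only member in the direction of iWAT. Counting intervals and floors cover counting error only, since reads were not collapsed to molecules.

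**Figure D2:**
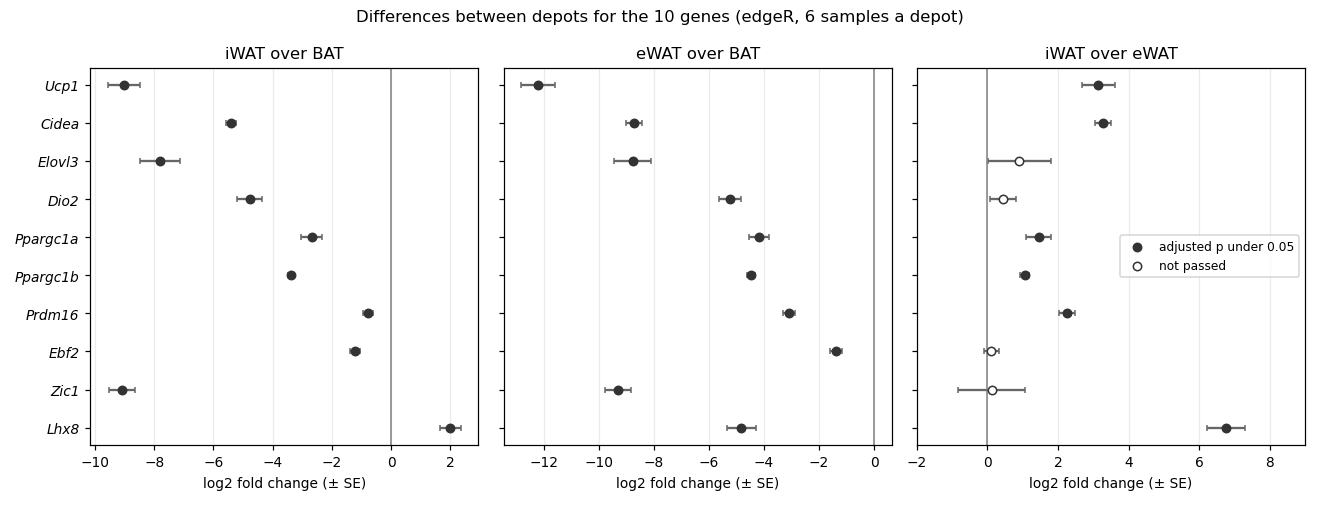
Log2 fold changes of the 10 genes for iWAT over BAT, eWAT over BAT and iWAT over eWAT from edgeR, with bars for ± 1 standard error and open points for adjusted p of 0.05 or more (6 samples a depot). Every gene but Lhx8 lies left of 0 against BAT in iWAT, all 10 do in eWAT, and 6 genes are higher in iWAT than in eWAT. The point of Zic1 rests on 1 read in each white depot.

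Against BAT, eWAT adipocytes were lower for all 10 genes in the same kind of test (18383 symbols, all 18 samples in the fit, shared with the comparison of iWAT and eWAT below). Of all symbols, 34.7% were called higher in BAT and 35.6% higher in eWAT. Zic1, Elovl3 and Lhx8 had 1, 23 and 8 reads in eWAT in all. Zic1 and Elovl3 could not have passed the filter of 10 reads in 6 samples without BAT, and Lhx8 passed it through iWAT and BAT. The direction of Zic1 and Elovl3 in the count of 10 was therefore set by the filter. Without TMM scaling this split was 4542 and 8946 symbols, in place of 6375 and 6541, and the 10 genes kept their direction. For 9 of the 10, every BAT sample was above every eWAT sample, against 11.5% of all symbols, the exception being Ebf2. The median log2 fold change of the 10 genes was -5.03 beside 0.03 for all symbols.

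Ucp1 was between 0.126 and 0.549 RPKM in eWAT (6 to 24 reads per sample), with a log2 fold change of -12.21 ± 0.61 against BAT (adjusted p = 3.48e-12 by edgeR), the second largest of the 18383 symbols. Cidea was between 0.786 and 3.13, and its log2 fold change was -8.73 ± 0.29 (adjusted p = 1.89e-14 by edgeR). The lowest Cidea value came from mouse 15, the sample with the high macrophage markers. That sample was the lowest of the depot in 33.9% of the 13096 rows with a mean RPKM of at least 1, and it held the lowest Ppargc1a and Ebf2 too. Elovl3 had 1 to 10 reads per eWAT sample, and BAT exceeded eWAT by a ratio of 345 in summed reads (95% counting interval 230.1 to 545). Dio2 (log2 fold change -5.25 ± 0.40), Ppargc1b (-4.48 ± 0.14), Ppargc1a (-4.18 ± 0.38) and Prdm16 (-3.09 ± 0.22) were all lower in eWAT, with adjusted p between 1.44e-14 and 1.32e-08 in edgeR. Prdm16 was between 0.298 and 0.891 RPKM there, below the BAT range that iWAT had reached, and with the sum of its eWAT rows the log2 fold change was -1.50. Zic1 again gave 1 read in all, in the sample of mouse 8. Lhx8 gave 8 reads over 6 eWAT samples, 0 to 3 in each, so that BAT was higher by a ratio of 24.6 (95% counting interval 12.2 to 57.8). Ebf2 was the least different, at 2.27 to 6.77 RPKM in eWAT, overlapping with BAT. Its log2 fold change was -1.39 ± 0.22 (adjusted p = 1.52e-05 by edgeR), and it was -0.71 on log2(RPKM + 0.1) with limma and -0.91 with the eWAT row of highest RPKM.

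Between the 2 white depots, 6 of the 10 genes were higher in iWAT, 4 did not pass the test, and none was called higher in eWAT. Over all symbols 13.4% were called higher in iWAT and 12.3% higher in eWAT. The row used for eWAT is a transcript and that for iWAT a whole gene, so the kind of row and the depot cannot be told apart. With limma on log2(RPKM + 0.1) the split over all symbols turned to 995 higher in iWAT and 8630 higher in eWAT, while the same 6 members were higher in iWAT. For 3 of the 10 genes, Cidea, Prdm16 and Lhx8, every iWAT sample was above every eWAT sample, against 1.95% of all symbols.

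Lhx8 differed most between the white depots, with 854 reads in iWAT and 8 in eWAT, which is a ratio of 123 per read of depth (95% counting interval 61.9 to 285). Cidea was higher in iWAT at a log2 fold change of 3.28 ± 0.23 (adjusted p = 1.28e-08 by edgeR), with 14.5 RPKM in the lowest iWAT sample and 3.13 in the highest eWAT sample. Its log2 fold change was 5.13 where the eWAT rows of every symbol were summed. Cidea has only 1 eWAT row, so its own reads were the same there and the value is not a larger difference in them. Prdm16 had a log2 fold change of 2.25 ± 0.22 (adjusted p = 7.02e-07 by edgeR). Its size depended on the eWAT row, at 0.69 (adjusted p = 0.00571 by edgeR) with the sum of its 21 rows and 3.05 with the row of highest RPKM. Ucp1 was higher in iWAT on average, at 3.14 ± 0.48 (adjusted p = 0.000119 by edgeR), but the iWAT sample of mouse 15 (0.494 RPKM, 21 reads) fell within the eWAT range. Ppargc1a (1.45 ± 0.35, adjusted p = 0.0052 by edgeR) and Ppargc1b (1.05 ± 0.13, adjusted p = 1.47e-05 by edgeR) were higher in iWAT with overlapping RPKM ranges. With the eWAT row of highest RPKM these were 3.25 and 0.63. For Ppargc1b the iWAT row covers 5643 bp and the eWAT row 3656 bp. The ratio of its mean RPKM was 1.32, and the log2 fold change was 0.84 with the row length as an offset and 0.40 on log2(RPKM + 0.1) with limma, all in the same direction. Dio2 was between 0.343 and 0.690 in iWAT and between 0.228 and 0.575 in eWAT, with a log2 fold change of 0.43 ± 0.37 (adjusted p = 0.417 by edgeR). Ebf2 (0.11 ± 0.21, adjusted p = 0.749) and Elovl3 (0.90 ± 0.89, adjusted p = 0.494) did not pass edgeR's test either, and Zic1 cannot be compared with 1 read on each side. Ebf2 is thus the member with the highest mean RPKM in eWAT and the second highest in iWAT.

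Within a depot the 10 genes varied to very different degrees. In BAT the coefficient of variation was 5.84% for Ppargc1b, 9.53% for Cidea and 15.6% for Ucp1, but 71.3% for Ppargc1a, 75.5% for Dio2 and 78.1% for Elovl3. Ppargc1a was 19.4 RPKM in the BAT sample of mouse 11 (3936 reads) and between 4.34 and 6.55 in the other 5. Dio2 was 30.5 in the same sample and between 4.84 and 12.8 in the others. Elovl3 went the other way, with its lowest value of 7.27 in that sample, and Lhx8, Zic1 and Ebf2 were also lowest there. Ucp1 (1202), Prdm16 (2.95) and Ppargc1b (14.7) of mouse 11 were within or near the range of the others. The high share of rows that peak in this sample was given above, and its part in these values was not tested. Elovl3 split the BAT samples into those of mice 6, 7 and 8 (36.1, 23.2 and 51.4 RPKM) and those of mice 11, 12 and 13 (7.27, 8.24 and 10.8). No date or batch in the labels separates these mice. The BAT sample of mouse 12, with the high muscle markers, held the lowest Cidea (634) and Ppargc1b (12.5) and the highest Lhx8 (0.715), and each member kept its call in the comparisons with BAT without it, except Zic1, which then had too few samples with 10 reads to be tested.

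**Figure D3:**
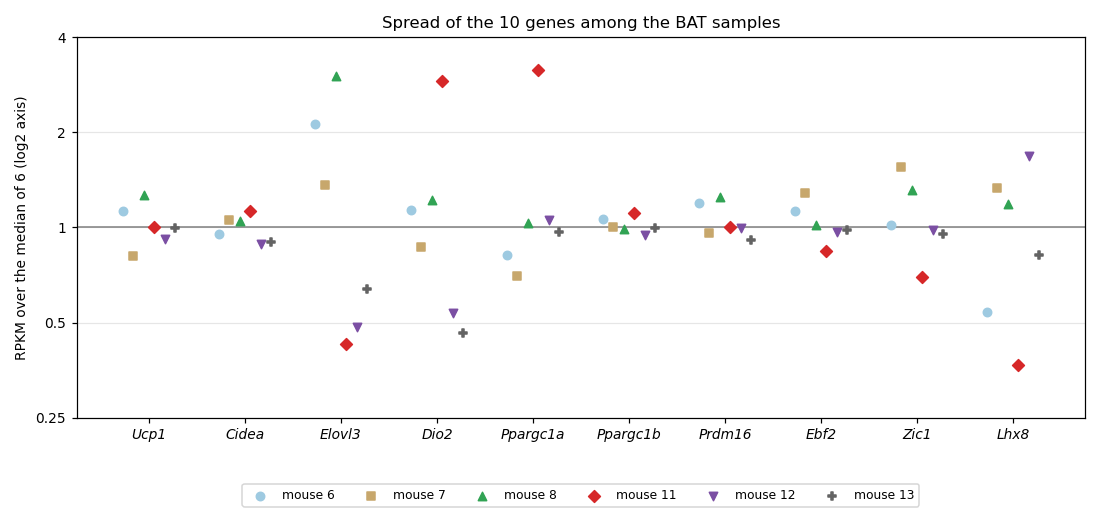
RPKM of each of the 10 genes in each BAT sample divided by the median of the 6 samples (log2 axis), with a colour and marker for each mouse. Mouse 11 (red diamonds) is far above the others for Dio2 and Ppargc1a and lowest for Elovl3, Ebf2, Zic1 and Lhx8, while Cidea and Ppargc1b hardly vary.

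In iWAT, Ucp1 was the most variable member with 10 or more reads in every sample, from 0.494 RPKM in mouse 15 to 5.76 in mouse 14, a ratio of 11.7 (coefficient of variation 68.1%). Cidea varied from 14.5 to 25.0 (20.2%), and its highest sample was that of mouse 11, in which Ucp1 was only 1.19. The highest Prdm16 (3.12) and the highest Lhx8 (3.52) both came from mouse 12. The iWAT sample of mouse 14 had the highest Ucp1 and the lowest Prdm16, Ppargc1a, Ppargc1b and Ebf2. Of the 11900 rows with a mean RPKM of at least 1, 29.6% were lowest in this sample, against 3.97% to 26.9% for the other iWAT samples, and 23.6% were highest in it. Its 7 endothelial markers summed to 321 RPKM, against at most 142 in the other iWAT samples. Their part in these values was not tested. Over the 6 samples of a depot, 22 pairs of Ucp1 and another member were correlated (Pearson's r and Spearman's rho, 44 exact permutation values adjusted together, smallest adjusted p = 0.996). With 6 samples the exact p cannot go below 0.00278, and a single pair at that limit in both measures would have an adjusted p of 0.0611, so no single pair could pass. The highest correlation was that of Prdm16 in BAT (r = 0.82, exact permutation p = 0.0472; rho = 0.83, p = 0.0583; r = 0.74 without the 2 samples farthest from the median). In iWAT the r of Cidea with Ucp1 was -0.01, and that of Prdm16 was -0.55.

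The transcript rows of eWAT allowed a closer look at which parts of these genes had reads. Ucp1 had 98 reads over its RefSeq transcript of 1644 bp, and a shorter cDNA row of 1235 bp that lacks the last part of the gene held 96 of them. Prdm16 is listed with 21 rows. Its full-length row of 8608 bp had a mean RPKM of 0.501, while an unspliced row of 1703 bp near its 3′ end had 344 reads and a mean of 1.08. A neighbouring row of 1655 bp, still closer to the 3′ end, had only 88 reads, so that coverage was uneven over this stretch. For Ppargc1a, the most-read row (6495 bp) had 668 reads and a mean RPKM of 0.549. The protein-coding RefSeq row of 6464 bp, with the same start and end, had 664 reads and also a mean of 0.549. A row of 848 bp that begins at an upstream start (mm9 position 51958964 on chromosome 5, against 51945160 for those rows) and runs into their span had 77 reads. For Ebf2, the most-read row of 5204 bp had 4740 reads and the RefSeq transcript of 4342 bp had 3143. The longer row reaches further at the 3′ end (mm9 position 68049755 on chromosome 14, against 68048604). Cidea has a single row. Zic1 and Lhx8 stayed at no more than 1 and 8 reads in any of their 8 and 7 rows. Reads are counted on every transcript they overlap, so these rows are not independent. The exons of Zic1 overlap those of Zic4 by 60 bp, those of Elovl3 overlap Pitx3 by 10 bp, and those of Dio2 (100 bp) and Cidea (20 bp) overlap a long noncoding RNA on the other strand, and a strand setting of the counting is not given in the sources used here.

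Their relatives followed varied patterns. The family list holds 28 genes, of which 14 were tested between iWAT and BAT. Of these 7 were higher in BAT, 4 were higher in iWAT and 3 did not pass, beside 33.6% of all rows higher in BAT and 34.0% higher in iWAT. Among the uncoupling proteins, Ucp3, which is best known from muscle, was 36.7 ± 3.8 RPKM in BAT and 9.5 ± 2.7 in iWAT (log2 fold change of iWAT over BAT -2.22 ± 0.18, adjusted p = 7.2e-08 by edgeR). It thus exceeded Ucp1 in iWAT and in eWAT (9.54 ± 2.9), in all 6 samples of each on the RPKM scale. Ucp2, which is abundant in immune cells, was 36.5 ± 39.9 in eWAT, with 117 in mouse 15 and 12.5 to 33.5 in the others, all above the highest BAT sample (4.86), beside 4.09 ± 0.963 in iWAT and 2.96 ± 1.14 in BAT. It was above BAT in eWAT (2.55 on the log2 scale, adjusted p = 8.55e-05 by edgeR). The macrophage markers were highest in the same sample, and their part in the Ucp2 level was not tested. Cidec, which builds the single large droplet of white adipocytes, was the mirror image of Cidea, with 1233 ± 249 on average in iWAT, 1625 ± 505 in eWAT and 256 ± 51.2 in BAT (iWAT over BAT 1.99 ± 0.17, adjusted p = 1.54e-07 by edgeR). Cideb, a liver relative, was 2.75 in BAT and 0.242 in iWAT (-3.77, adjusted p = 8.59e-09 by edgeR).

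Of the fatty acid elongases, Elovl6 was higher in BAT as Elovl3 was (133 ± 35.8 against 15.5 ± 9.9 in iWAT, log2 fold change -3.37, adjusted p = 5.8e-06 by edgeR). Elovl5 was slightly higher in BAT (-0.57, adjusted p = 0.00954), and Elovl1 was higher in iWAT (1.31, adjusted p = 1.04e-06, both edgeR). Ebf1 was higher in both white depots than in BAT, the opposite of Ebf2 (iWAT over BAT 1.33, adjusted p = 5.58e-08, eWAT over BAT 0.90, adjusted p = 6.56e-05, both edgeR). Its mean RPKM was 9.66 (iWAT), 23.5 (eWAT) and 3.20 (BAT). The eWAT value is that of a transcript row, and iWAT over eWAT did not pass (0.38, adjusted p = 0.0884 by edgeR). Ebf3 had mean RPKM between 4.83 and 5.05 in the depots and did not pass between iWAT and BAT (-0.23, adjusted p = 0.287 by edgeR). On read counts it was lower in eWAT than in BAT (-1.21, adjusted p = 0.000127) and higher in iWAT than in eWAT (0.93, adjusted p = 0.00611, both edgeR). The eWAT mean is that of a transcript row. Mecom, the closest relative of Prdm16, was 0.659 in iWAT and 0.926 in BAT (-0.76, adjusted p = 0.00489 by edgeR). Pprc1, the third of the Ppargc1 family, was just past the threshold in the direction of iWAT (0.57, adjusted p = 0.0495 by edgeR). Lhx6 did not pass between iWAT and BAT (0.18, adjusted p = 0.721 by edgeR). Zic4, the neighbour of Zic1, was read in every BAT sample (0.0705 to 0.210 RPKM) and had 0 reads in all 12 white fat samples. It was named after its values were seen.

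**Figure D4:**
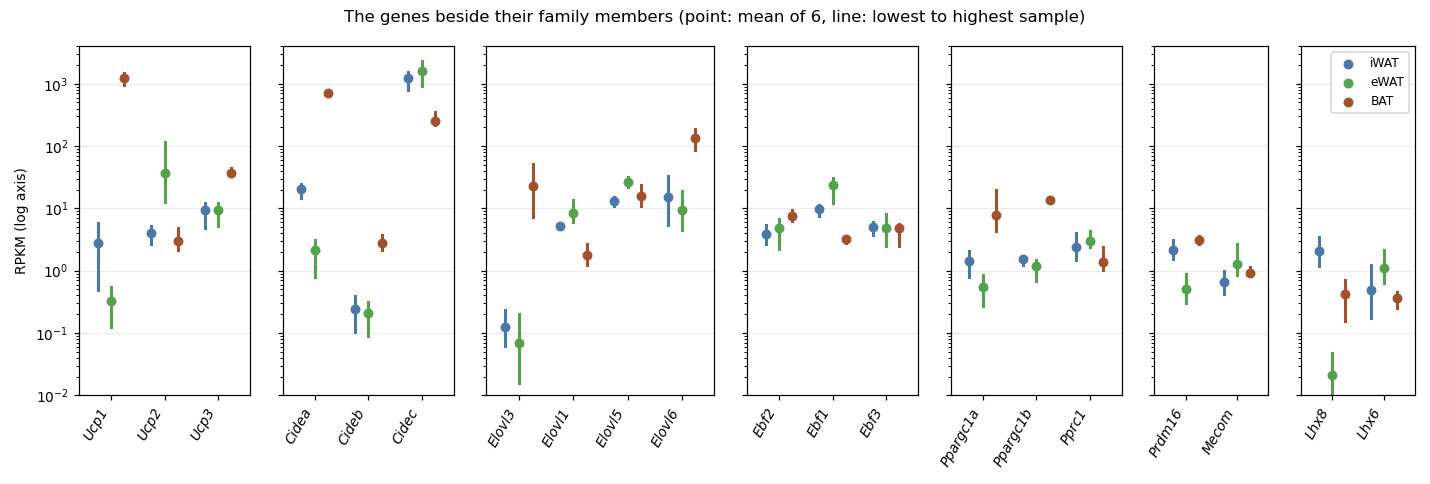
RPKM (log axis) of the members and of the family genes with a mean of at least 1 RPKM in a depot, with a point at the mean of 6 samples and a line from the lowest to the highest sample, and lines cut at 0.01. Ucp3 and Elovl6 are highest in BAT as Ucp1 and Elovl3 are, whereas Cidec, Ebf1 and Elovl1 are lowest in BAT and Ucp2 is highest in eWAT.

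Other genes of brown fat followed the members. Of 30 listed, 29 were tested between iWAT and BAT, and 26 of them were higher in BAT, 2 were higher in iWAT and 1 did not pass (median log2 fold change -3.65, beside 0.01 for all rows). Of all rows, 33.6% were higher in BAT and 34.0% higher in iWAT. The 4 genes with the largest differences follow. Slc27a2, which activates very long chain fatty acids, was 26.5 ± 5.2 RPKM in BAT and 0.034 in iWAT (log2 fold change -9.75 ± 0.29). Fabp3, a fatty acid carrier of heart and muscle, was 102 ± 37.0 against 0.315 (-8.54 ± 0.34). With 22 and 47 reads in iWAT in all, Slc27a2 and Fabp3 could not have passed the filter of 10 reads in 6 samples without BAT. Acot11, a cold-induced acyl-CoA thioesterase, was 68.9 ± 27.4 against 0.450 (-7.55 ± 0.50), and Aspg, an asparaginase, was 25.8 ± 7.6 against 0.201 (-7.33 ± 0.49). The 4 adjusted p were between 1.01e-11 and 1.29e-08 in edgeR. Against this list, Lipe, the hormone-sensitive lipase, and the hormone Fgf21 were higher in iWAT (0.67 and 1.09, adjusted p = 2.28e-05 and 0.045 by edgeR), and the secreted factor Nrg4 did not pass (-0.14, adjusted p = 0.276), 3 genes named after their values were seen. In eWAT, 27 of the 29 were lower than in BAT and 2 did not pass, beside 34.7% of all symbols that were lower in eWAT. Between the white depots 16 of the 29 were higher in iWAT, 13 did not pass, and none was called higher in eWAT. For all symbols these shares were 13.4% higher in iWAT and 12.3% higher in eWAT.

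The factors that work with or against the members form a pair of further lists. Of 38 activators and partners, 35 were tested between iWAT and BAT, with 13 higher in BAT, 9 higher in iWAT and 13 that did not pass, at a median of -0.02. Over all rows 33.6% were higher in BAT and 34.0% higher in iWAT, which holds for the repressors below too. Ppara and Esrrg also stand on the list of other brown fat genes. Ppara, the fatty acid sensing nuclear receptor, was 45.7 ± 9.0 in BAT and 3.26 ± 0.64 in iWAT (-4.07 ± 0.16), and the estrogen-related receptors that Ppargc1a and Ppargc1b bind, Esrrg (-3.99 ± 0.26) and Esrra (-2.30 ± 0.09), were also higher in BAT. Cebpd, an early adipogenic factor, was the largest difference the other way (27.9 ± 6.6 in iWAT against 1.0 in BAT, 4.55 ± 0.23). These 4 had adjusted p of at most 1.14e-08 in edgeR. Of 22 repressors of the brown program, 21 were tested, and 14 were higher in iWAT, 1 (Irf3, named after its values were seen) was higher in BAT and 6 did not pass, at a median of 0.93. Nrip1, the corepressor RIP140 of nuclear receptors, was 24.8 ± 7.8 in iWAT and 1.24 ± 0.16 in BAT (4.07 ± 0.22). Ripk1, a kinase of TNF signalling, was 10.6 against 1.44 (2.63 ± 0.19), and Rbl1, the retinoblastoma relative p107, was 1.91 against 0.370 (2.11 ± 0.13). Zfp423, a zinc finger protein that holds back Ebf2 in white adipocytes, was 9.83 ± 1.8 in iWAT and 2.18 ± 0.22 in BAT (1.91 ± 0.11), while Ebf2 itself was higher in BAT. The 4 repressors had adjusted p of at most 2.13e-08 in edgeR.

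Among 12 beige markers, 9 were tested between iWAT and BAT, of which 5 were higher in iWAT, 2 were higher in BAT and 2 did not pass. The shares over all rows were 34.0% higher in iWAT and 33.6% higher in BAT. Hoxc9 (4.87 ± 0.34 in iWAT, 1 read in all BAT samples), Shox2 (5.67 ± 0.55 against 0.366, log2 fold change 3.68 ± 0.13) and Klhl13 (3.76 ± 0.57 against 0.335, 3.23 ± 0.16) were higher in iWAT. P2rx5, an ATP-gated channel, was higher in BAT (23.3 ± 4.0 against 2.30, -3.61 ± 0.15). The adjusted p of these 4 were at most 8.25e-10 in edgeR. Shox2 and Lhx8, both homeobox genes, had the same order of depots, iWAT above BAT above eWAT, and Tbx1, named after its values were seen, had it too (0.272, 0.0215 and 0.00937 RPKM). Tmem26, Tnfrsf9 and Cited1 were too low to be tested, at no more than 0.126 mean RPKM in any depot. Of 16 white fat genes, 15 were tested and all 15 were higher in iWAT than in BAT, at a median log2 fold change of 5.20. Hoxc9, Hoxc10 and Serpina3k had 1, 0 and 4 reads in BAT in all. They passed the filter of 10 reads in 6 samples through iWAT only, so their direction was set by it. Hoxc9 stands on this list as well as on the beige list and is counted in both. Hoxc10 was 10.9 ± 0.83 RPKM in iWAT with 0 reads in BAT, Cyp2f2 was 56.1 ± 26.9 against 0.503 (6.52 ± 0.50) and Serpina3k was 1.35 ± 0.54 against 0.0117 (6.22 ± 0.56).

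**Figure D5:**
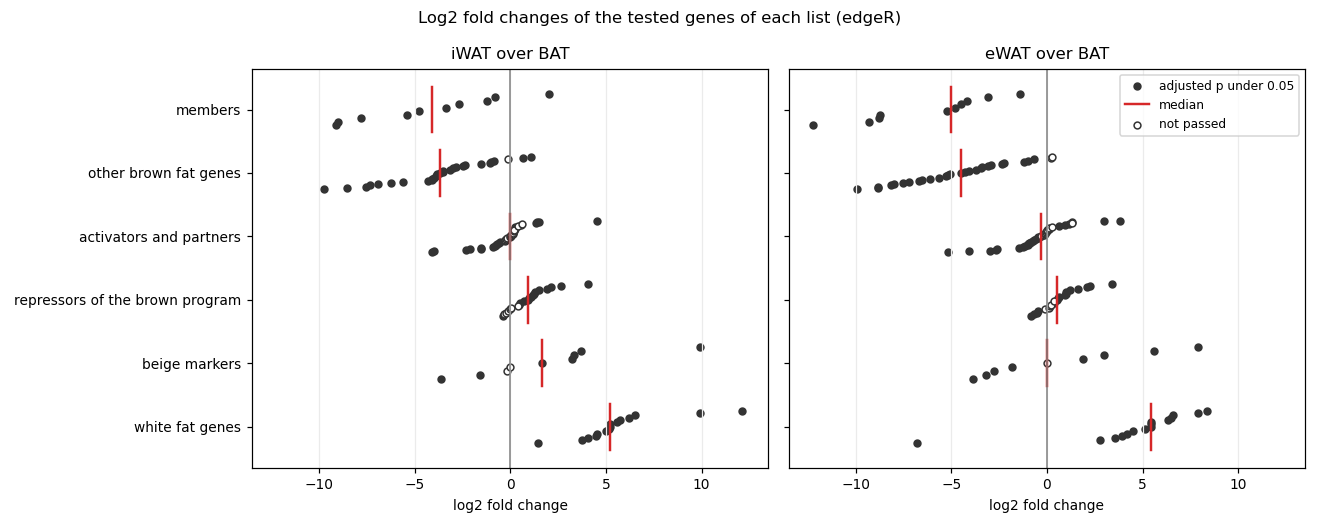
Log2 fold changes of the tested genes of each list for iWAT over BAT and eWAT over BAT, with 1 point per gene, open where adjusted p was 0.05 or more, and a red line at the median of each list. The members and the other brown fat genes lie mostly left of 0 (medians -4.07 and -3.65 in iWAT), the activators lie around 0, and the repressors and white fat genes lie mostly to the right.

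The genes whose pattern was most like that of Ucp1 over the 12 iWAT and BAT samples were A230065N10Rik (Pearson's r of log2(RPKM + 0.1) 0.994), St6galnac6 (0.993), Cpt1b (0.992), Fabp3 (0.992) and Pdzd9 (0.991), among 14597 rows compared. These 12 samples fall into 2 depots, so such an r mostly restates the difference between them. Cpt1b, which admits fatty acids to mitochondria, was 163 RPKM in BAT and 2.63 in iWAT. Within the 6 iWAT samples the most similar of 13696 rows were Tcf7l1 (0.988), Tm6sf1 (0.977), a gene without a symbol (0.973), Cyp2j9 (0.970) and Casp6 (0.961). With the depot means taken off, the gene most like each other member over the 12 samples had an r between 0.880 and 0.972. These were Gcc1 for Cidea, Cox11 for Prdm16, Abi1 for Ppargc1a, Pi4k2b for Ppargc1b, Uchl4 for Dio2, Wars2 for Elovl3, Slc7a10 for Zic1, AI606473 for Lhx8 and Arhgap26 for Ebf2. With so many rows and so few samples these likenesses are a description only.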

How the data were processed

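RNA-seq data of 18 samples were analysed, 6 from each depot, grouped by the depot named in the labels. According to the methods, libraries of total RNA were made with the NEBNext Ultra kit, sequenced on an Illumina HiSeq and analysed with the Genomatix Genome Analyzer. The submitters' processing notes name cutadapt (version 1.16), HISAT2 (version 2.1.0) and the build mm9. The counting tool's settings, its strand setting and the annotation version are not given in the sources used here. The authors deposited for each row the number of reads, which is a raw count. They also deposited the RPKM, the count per kilobase of the row scaled by the sample's total of reads. There are 53445 merged genes in each iWAT and BAT table and 189660 transcripts in each eWAT table.

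From these, edgeR (version 4.0.16, R version 4.3.3; glmQLFit and glmQLFTest) was run on the deposited counts with TMM factors. Library size was the total that the RPKM rests on, and a row needed 10 reads or more in 6 samples or more. The iWAT and BAT samples were fitted alone on merged rows. Comparisons with eWAT used all 18 samples with the merged row and the most-read transcript of each symbol. Adjusted p are Benjamini-Hochberg values over all rows tested, with 0.05 as the threshold, and an SE was derived from the F statistic. No source says that the 6 samples of a depot came from separate animals other than the numbers in their titles, so p-values measure the spread between these samples. On simulated counts with 200 changed rows, the code called 121 of them and 5 of 19533 unchanged rows for iWAT and BAT.

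The members and gene lists were chosen with earlier results of these data known. Named were all members, the family genes that averaged 1 RPKM or more in a depot, and up to 4 genes of each other list. These 4 had the largest difference between iWAT and BAT, passed the threshold and averaged 1 RPKM or more where they were higher. A further list of marker genes is not reported here. Likeness used log2(RPKM + 0.1). Alternatives were DESeq2 (version 1.42.0), limma (version 3.58.1), a block on the number in the titles, other filters and scalings, other eWAT rows, and leaving out each sample. Promoter sequences came from RefSeq (GRCm38.p6), and exon overlaps from the GENCODE annotation of the mouse build NCBIM37.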

Additional observations from a re-analysis of the deposited data

Results flagged for a closer look

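Values of single samples were compared with the rest of their depot by Dixon's criterion (the gap to the nearest sample as a share of the whole range, at its 95% critical value for 6 samples), over 27 sets of 6 values of the members. The 3 values that exceeded it follow, and chance alone would give about 5% of the sets. In BAT, Ppargc1a was 19.4 RPKM in the sample of mouse 11, while the other 5 samples were between 4.34 and 6.55. Dio2 was 30.5 RPKM in the same sample, against 4.84 to 12.8 in the others. In eWAT, Elovl3 was 0.200 RPKM in the sample of mouse 14, which is 10 reads, against 0.0157 to 0.0781 in the others.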

How the results depend on the processing

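Over 648 values of the members under other settings, 632 kept the direction and the side of the threshold, and every one of the 418 values against BAT did so. In iWAT against eWAT, Dio2 passed with the sum of all eWAT rows (log2 fold change 1.06, adjusted p = 0.0131 by edgeR, and up to 0.725 under the other settings). That sum counts a read again for every row it overlaps, and the scaling of the samples changes with it. Ebf2 and Zic1, neither of them called, turned direction between iWAT and eWAT. Ebf2 was -0.26 and -0.22 with limma at a pseudocount of 0.1 and 1, -0.33 with the eWAT row of highest RPKM, -0.059 without the eWAT samples of mice 14 and 15, and between -0.036 and 0.24 when 1 sample was left out. Zic1 was -0.37 with summed rows, -0.12 with the row of highest RPKM, -0.20 without mice 14 and 15, and between -1.13 and 1.23 when 1 sample was left out, the extremes coming from the samples that hold its single reads. Leaving out mice 14 and 15 of eWAT was chosen after seeing the data. Only 3 members have a row of the same position and length in both kinds of table. With such shared rows, 3 members were called in the comparison of eWAT with BAT and 2 in that of the white depots, and 3828 and 726 rows were called in all, since fewer rows were tested. Between iWAT and eWAT the count over all symbols, 4714, rose to 9625 and 9479 with limma at a pseudocount of 0.1 and 1, 9640 with the row length as an offset, 13584 with summed rows and 10523 with the row of highest RPKM, and the cause was not tested. When 1 sample was left out, the counts over all rows were between 12307 and 13291 (iWAT against BAT), 12087 and 12781 (eWAT against BAT) and 3883 and 5156 (iWAT against eWAT). The member counts were 9 to 10, 9 to 10 and 6. The 9 arose without any 1 BAT sample, when Zic1 had too few samples with 10 reads.

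Samples with the same number showed little or no shared deviation (correlations of deviations between -0.32 and 0.11, 1 of 13 pairs above 0.1, and 1 of 26 samples best matched by its own number). With a replicate block in edgeR, the counts over all rows were 11711 for iWAT with BAT, 11401 for eWAT with BAT and 3153 for the 2 white depots, and the paired fit changed no call of a member. Depth limits Zic1 and Elovl3 in both white depots and Lhx8 in eWAT, where few reads set the values.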

Other observations

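Markers of the other cell types were summed for each sample, and the medians of the 6 sums are given in RPKM for iWAT, eWAT and BAT in that order. Each gene has a transcript row in eWAT and a merged row in iWAT and BAT. Depot and kind of row therefore cannot be told apart where these sums are compared with eWAT. Macrophage genes (9) gave 52.9, 296 and 43.1, endothelial genes (7) 93.7, 183 and 86.6, and stromal progenitor genes (7) 70.8, 115.7 and 51.3. Skeletal muscle genes (10) gave 18.4, 32.4 and 31.7. Mesothelial genes (5) gave 4.10, 20.7 and 13.1, and lymphocyte genes (5) stayed below 1.2 in every sample. The epididymis genes (5) had a median of 0, 1.82 and 0.007. Each of the 8 adipocyte genes was called higher in iWAT than in BAT by edgeR, and 6 of the 8 were called higher in eWAT than in BAT. Over all rows or symbols tested these shares were 34.0% and 35.6%.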
